A study of Mus musculus with 9 samples.

Results

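The data describe 10 genes of bone morphogenetic protein (BMP) and transforming growth factor beta (TGF-β) signalling in fetal liver macrophages, namely the receptors Acvrl1, Tgfbr1 and Tgfbr2, the Smads Smad1, Smad4, Smad5, Smad6 and Smad7, and the target genes Id1 and Id3. They were chosen by name, as a list of niche signalling genes, among the 13708 genes of the table, and all 10 had a row and passed the filter on low values, as did 13594 genes in all. Macrophages gated as CD45+, F4/80 high and CD11b low were sorted from livers of E15.5 embryos and measured by bulk RNA-seq in 5 Mrc1Cre Xpr1fl/fl samples and 4 Xpr1fl/fl samples. All 9 carried Xpr1, the gene of the phosphate exporter XPR1, with loxP sites (fl/fl), and only the first group also carried Cre recombinase, driven by the locus of Mrc1 (the mannose receptor CD206), so that the controls have the floxed alleles without Cre. Mrc1Cre is not specific to macrophages, since the study describes deletion in liver endothelial cells of this model too. The labels do not say whether a sample is 1 embryo or a pool, so the p-values measure the spread between these samples, which may be in part technical.

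Ligands of the BMP and TGF-β families bring together type I and type II receptors at the cell surface. The activated type I receptor phosphorylates receptor Smads (Smad1 and Smad5 in the BMP branch, Smad2 and Smad3 in the TGF-β branch), which join the shared partner Smad4 and act on genes in the nucleus. Smad6 and Smad7 inhibit the pathway and are themselves induced by it. Id1 and Id3, classical BMP targets, encode helix-loop-helix proteins without a DNA-binding region that hold E proteins away from DNA. In the liver, BMP9 and BMP10 from stellate cells, received by ACVRL1 and SMAD4, and ID3 within the macrophage are known to support the identity of Kupffer cells, the resident macrophages.

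Promoter sequences are shown for Smad6, Tgfbr1 and Tgfbr2, because Smad6 held a Smad element at its start and because Tgfbr1 and Tgfbr2, which encode the pair of chains of the TGF-β receptor, differed in their change between the genotypes. The sequences are RefSeq windows of GRCm38.p6 that run from 250 bases before to 50 after the start of a gene, given 5′ to 3′ on the strand of the gene. The Tgfbr1 and Tgfbr2 runs end at the start, and the Smad6 run goes on to the end of its motif. They were searched on both strands for GGCGCC (the GC-rich element of Smad1 and Smad5), GTCTAGAC (the palindromic Smad element) and CAGCTG (an E-box, which E proteins bind). Each of the motifs reads the same on both strands, and none overlaps another here. Capitals mark a motif. Smad6 lies at chr9:64022056-64022309 on the minus strand, Tgfbr1 at chr4:47352972-47353221 on the plus strand and Tgfbr2 at chr9:116175364-116175613 on the minus strand.
Smad6: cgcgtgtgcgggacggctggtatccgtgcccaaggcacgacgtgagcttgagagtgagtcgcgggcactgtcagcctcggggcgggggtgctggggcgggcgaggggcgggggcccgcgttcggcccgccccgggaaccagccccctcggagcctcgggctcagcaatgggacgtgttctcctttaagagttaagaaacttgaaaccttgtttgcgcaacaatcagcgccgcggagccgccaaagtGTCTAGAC
Tgfbr1: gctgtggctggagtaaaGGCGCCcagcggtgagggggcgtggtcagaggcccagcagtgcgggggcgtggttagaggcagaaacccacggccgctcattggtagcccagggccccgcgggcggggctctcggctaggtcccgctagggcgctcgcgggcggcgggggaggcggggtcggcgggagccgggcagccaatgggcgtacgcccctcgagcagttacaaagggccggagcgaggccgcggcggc
Tgfbr2: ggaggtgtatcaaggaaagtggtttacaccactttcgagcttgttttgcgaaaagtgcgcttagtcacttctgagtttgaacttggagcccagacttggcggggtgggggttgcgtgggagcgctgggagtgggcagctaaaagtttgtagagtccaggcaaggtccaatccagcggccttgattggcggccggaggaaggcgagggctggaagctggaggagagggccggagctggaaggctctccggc
GTCTAGAC begins 4 bases before the start of Smad6, and 0.213% of all 32851 windows held it. GGCGCC begins 233 bases before the start of Tgfbr1, and 11.9% of all windows held that motif. A second window of Tgfbr1 (chr4:47385966-47386265), from another start, held none of the motifs and is not printed. In Tgfbr2, CAGCTG, present in 16.3% of all windows, occurred only after the start and is not in the run above. Windows were also matched for Smad5, with GGCGCC in 2 windows that overlap and no motif in a further one, and for Id3 and Smad1, which held none of the motifs in the window. Acvrl1 and Id1 had no entry, and Smad4 and Smad7 were not searched. A match describes letters and does not show binding.

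The values are normalized counts, which the authors obtained by dividing gene counts by normalization factors. The totals of the samples ran from 26942921 to 28309443 and were set by that normalization, so the sequencing depth is unknown and no counting interval is given. The deleted gene Xpr1 was at 1073.7 to 1285.3 normalized counts in Mrc1Cre Xpr1fl/fl samples and 1780.9 to 2239.2 in Xpr1fl/fl samples (log2 fold change -0.77, adjusted p = 4.13e-05). The loxP sites flank only part of the gene, per the study's methods, so counts over the whole gene do not measure how complete the deletion was. The column names carry 3 dates whose meaning is not given, and the genotypes share only the earliest, with Mrc1Cre Xpr1fl/fl sample 5 and Xpr1fl/fl samples 1 to 3. A second limma fit that includes the date, called the date fit here, therefore rests on that sample against those 3, and its values are given beside the results or for a whole list.

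The sorted cells carried macrophage markers in every sample. Csf1r, the receptor of macrophage colony-stimulating factor, was at 75601.3 to 91177.9 in Mrc1Cre Xpr1fl/fl and 71872.1 to 84134.9 in Xpr1fl/fl samples. Of 11 macrophage and Kupffer cell markers, 3 were higher (Ptprc, Nr1h3 and Spic) and 4 were lower (Timd4, Clec4f, Vsig4 and Cd5l) in Mrc1Cre Xpr1fl/fl samples, and all of these but Cd5l also passed in the date fit. Cd5l, the most abundant of the list over all samples, was at 44616.5 to 72986.6 against 84219.9 to 124301.5. Markers of other cells were present too. All 14 erythroid markers, led by Hba-a1, were lower in Mrc1Cre Xpr1fl/fl samples, with summed levels of 91959.6 to 306204.7 against 402511.9 to 645026.7. All 10 hepatocyte markers, led by Trf, were lower, with sums of 35086.5 to 45475.6 against 59302.8 to 102032.8. Trf, with means of 21976.9 against 35179.7, weighed most in these sums and changed least of the list (log2 fold change -0.67). Of 18 endothelial markers 15 were lower, with sums of 6475.0 to 8708.4 against 10804.0 to 15134.7. Stab2 was the most abundant and, with means of 4792.9 against 8125.1, weighed most in these sums. Of 9 stellate and mesenchymal markers tested 7 were lower, with sums of 653.4 to 1162.8 against 2143.4 to 5905.2, Col3a1 was the most abundant, and Tcf21 had no row in the table. The sum of granulocyte and progenitor markers (4 of 8 lower, 4971.1 to 13998.5 against 9775.1 to 45342.4) overlapped between the genotypes, with S100a9 and Mpo at like levels as the most abundant. However, the 4 that were lower (Mpo, Elane, Prtn3 and Kit) each did not overlap. The sum of megakaryocyte markers (3 of 5 lower, 718.7 to 1041.2 against 2163.9 to 2618.3, led by Pf4) did not overlap. Monocyte markers, led by Plac8, went both ways, with 3 higher and 3 lower of 8, and their sum was 10955.6 to 14611.6 against 7438.7 to 9948.3. In the date fit fewer of these markers were called, namely 3 of the 14 erythroid (median log2 fold change -0.94, beside -1.82 by genotype alone), 2 of the 10 hepatocyte (-0.53, beside -1.11) and 1 of the 18 endothelial markers (-1.05, beside -1.23), all lower. It also called 3 stellate and mesenchymal, 4 granulocyte and progenitor and 1 megakaryocyte marker lower and 1 monocyte marker higher. Mrc1Cre Xpr1fl/fl sample 5, on which the date fit rests, had the highest sums of its genotype for erythroid (306204.7), hepatocyte (45475.6) and granulocyte and progenitor markers (13998.5). Its sums for the other marker lists were not the highest. The part of these other cells in the results below, and in the date fit, was not tested. In bulk samples, fewer cells of a type and less RNA per cell cannot be told apart. Per the study, the sort took macrophages high and low in Tim4, the protein of Timd4, together. Its flow cytometry showed the low ones in Mrc1Cre Xpr1fl/fl embryos beside the high ones. Their shares in these samples are not known, and their part in the results was not tested.

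Of the 10 genes, Tgfbr1 changed most by genotype alone (log2 fold change 0.59), and Smad7 changed most in the date fit (-0.43, which did not pass). In Mrc1Cre Xpr1fl/fl samples Tgfbr1, Smad5 and Smad4 rose and Smad7 fell, whereas Acvrl1, Tgfbr2, Smad1, Smad6, Id1 and Id3 did not pass the test. The 4 genes called, 40% of the list, compare with 43.1% of all genes tested (limma, Benjamini-Hochberg adjusted p under 0.05). Among all genes, 21.5% were called higher and 21.6% lower. The genotypes did not overlap in 2 of the 10 genes, Tgfbr1 and Smad5, against 34.1% of all genes tested. The share of these genes that changed was thus near the background. Their median log2 fold change was 0.05, beside 0.005 over all genes. In the date fit limma called 0 of the 10 genes, against 8.78% of all genes tested, and 2 of the 10 (Tgfbr1 and Smad7) were under an unadjusted p of 0.05 there, as 5 were by genotype alone.

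**Figure D1:**
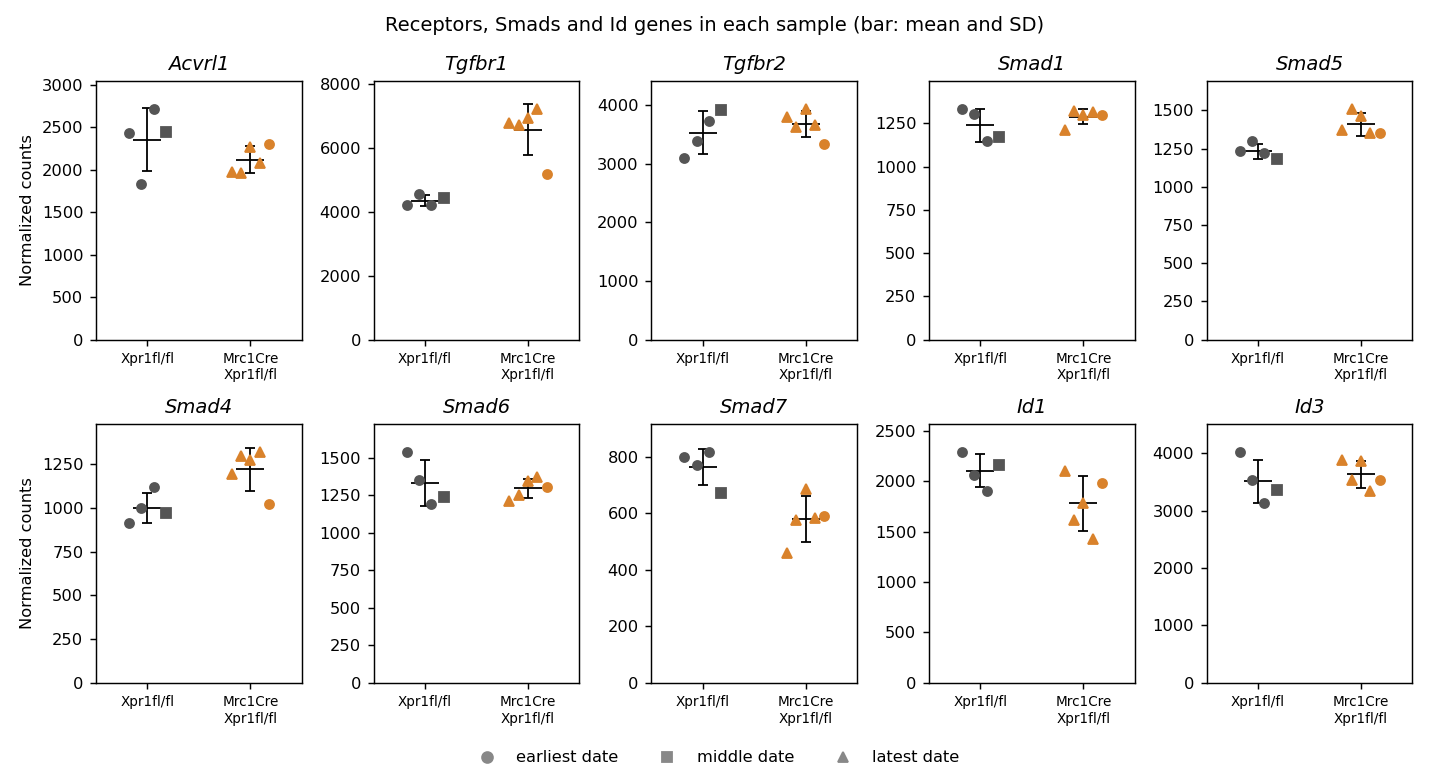
Normalized counts (vertical axes, starting at 0) of the 10 genes in each of the 4 Xpr1fl/fl samples (grey) and 5 Mrc1Cre Xpr1fl/fl samples (orange), with the mean and SD as bars and the date in the column name as the shape of the point. Tgfbr1 and Smad5 separate the genotypes, while the points of Acvrl1, Tgfbr2, Smad1, Smad6, Id1 and Id3 lie in overlapping ranges.

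Tgfbr1, the type I receptor of TGF-β (ENSMUSG00000007613, GRCm39 chromosome 4, 47353134 to 47414931, plus strand), was at 6781.8, 6715.5, 6941.2, 7219.6 and 5174.8 normalized counts in Mrc1Cre Xpr1fl/fl samples 1 to 5 and at 4208.2, 4557.2, 4193.0 and 4428.2 in Xpr1fl/fl samples 1 to 4. Every Mrc1Cre Xpr1fl/fl sample was above every control, with sample 5 the nearest to them. The means were 6566.6 ± 801.9 (SD, n = 5) and 4346.6 ± 176.8 (SD, n = 4), a 1.5-fold difference (log2 fold change 0.59, SE 0.087, limma adjusted p = 0.000357), and the change stood at the 93.3 percentile of all genes tested. Leaving out each sample in turn moved the log2 fold change between 0.55 and 0.67. The date fit gave 0.26 (95% interval 0.08 to 0.44, adjusted p = 0.0766).

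Tgfbr2, the type II chain that binds TGF-β and activates TGFBR1 (ENSMUSG00000032440, chromosome 9, 115913361 to 116004800, minus strand), was at 3795.1, 3625.0, 3934.9, 3659.4 and 3340.5 in Mrc1Cre Xpr1fl/fl and 3087.7, 3378.5, 3724.7 and 3921.7 in Xpr1fl/fl samples. The ranges overlapped almost entirely (log2 fold change 0.06, 95% interval -0.10 to 0.22, adjusted p = 0.533). The sign of this small difference turned in the date fit (-0.02) and under other scalings (-0.018 and -0.049).

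The log2 ratio of Tgfbr1 to Tgfbr2 tests whether the chains of the receptor changed to a different extent. It was 0.837, 0.889, 0.819, 0.980 and 0.631 in Mrc1Cre Xpr1fl/fl and 0.447, 0.432, 0.171 and 0.175 in Xpr1fl/fl samples. No value of one genotype reached the range of the other. The difference was 0.525 (two-sided exact permutation p = 0.00794, the smallest that 126 arrangements give, adjusted p = 0.0317 over 4 ratios). Among samples of the shared date only, the difference was 0.28, with no test.

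Acvrl1, or ALK1, the type I receptor of BMP9 and BMP10 (ENSMUSG00000000530, chromosome 15, 101025996 to 101043217, plus strand), was at 1977.4, 1967.6, 2265.7, 2083.9 and 2298.0 in Mrc1Cre Xpr1fl/fl samples. The controls were at 2432.7, 1830.9, 2719.4 and 2444.3, so that 3 of them lay above all Mrc1Cre Xpr1fl/fl samples and sample 2 lay below all. The log2 fold change was -0.14 (95% interval -0.37 to 0.08, adjusted p = 0.285). Single controls moved this value both ways. Without Xpr1fl/fl sample 2 the log2 fold change was -0.26 (adjusted p = 0.0171), and without Xpr1fl/fl sample 3 it was -0.068 (adjusted p = 0.633). Of 20 alternatives, only 1, that without Xpr1fl/fl sample 2, passed. In the date fit the log2 fold change was 0.00091 (adjusted p = 0.998). Acvrl1 is also known from endothelial cells, whose markers were lower in Mrc1Cre Xpr1fl/fl samples, as given above. The part of these cells in the level of Acvrl1 was not tested.

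The receptor Smads of the BMP branch, Smad1 and Smad5, are close relatives with shared roles. Smad5 (ENSMUSG00000021540, chromosome 13, 56850797 to 56890190, plus strand) was at 1370.9, 1510.6, 1463.0, 1348.7 and 1348.8 in Mrc1Cre Xpr1fl/fl and 1234.5, 1297.1, 1219.1 and 1180.7 in Xpr1fl/fl samples. The genotypes did not overlap, but the gap was small (1408.4 ± 74.1 against 1232.8 ± 48.4, 1.14-fold, log2 fold change 0.19, SE 0.057, adjusted p = 0.0182). The call was lost without Xpr1fl/fl sample 4 (0.17, adjusted p = 0.053), with scaling to the 75th percentile (0.11, adjusted p = 0.137) and in the date fit (0.11, adjusted p = 0.528). Smad1 (ENSMUSG00000031681, chromosome 8, 80065023 to 80126168, minus strand) was at 1209.8, 1318.0, 1298.3, 1316.2 and 1294.9 against 1333.9, 1303.5, 1145.4 and 1168.2. The Mrc1Cre Xpr1fl/fl samples fell within the range of the controls (log2 fold change 0.06, 95% interval -0.08 to 0.20, adjusted p = 0.470). A difference between these relatives was not shown, since the log2 ratio of Smad1 to Smad5 was -0.129 ± 0.0755 against 0.00336 ± 0.0832 (difference -0.132, exact permutation p = 0.0556, adjusted p = 0.0556). That ratio passed without Xpr1fl/fl sample 3 (difference -0.163, exact permutation adjusted p = 0.0476), and among samples of the shared date the difference was -0.068, with no test.

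Smad4, the partner that both branches share (ENSMUSG00000024515, chromosome 18, 73769343 to 73836915, minus strand), was at 1195.5, 1294.2, 1271.7, 1320.2 and 1019.8 in Mrc1Cre Xpr1fl/fl and 911.5, 999.4, 1119.4 and 971.0 in Xpr1fl/fl samples. Mrc1Cre Xpr1fl/fl samples 1 to 4 were above every control, and sample 5 lay among the controls. Smad4 rose 1.22-fold (log2 fold change 0.28, SE 0.087, adjusted p = 0.0209). Sample 5 is the Mrc1Cre Xpr1fl/fl sample that shares the earliest date with controls, and the date fit gave a log2 fold change of 0.02 (adjusted p = 0.941). The call was also lost without Xpr1fl/fl sample 1 (0.24, adjusted p = 0.0616) and with scaling to the 75th percentile (0.21, adjusted p = 0.0628).

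The inhibitory Smads parted. Smad7, which blocks TGF-β receptors and is induced by TGF-β (ENSMUSG00000025880, chromosome 18, 75500374 to 75529006, plus strand), was at 461.0, 577.9, 688.5, 583.8 and 591.9 in Mrc1Cre Xpr1fl/fl and 798.8, 771.2, 818.2 and 673.5 in Xpr1fl/fl samples. Only Mrc1Cre Xpr1fl/fl sample 3 reached above the lowest control. Smad7 fell (580.6 ± 80.8 against 765.4 ± 64.3, 0.755-fold, log2 fold change -0.41, SE 0.11, adjusted p = 0.0104), and the highest adjusted p on leaving out any sample was 0.0342. Its log2 fold change in the date fit was about as large, -0.43, with an adjusted p of 0.176. In the order of all genes tested this change stood at the 20.3 percentile.

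Smad6, which acts mainly on the BMP branch (ENSMUSG00000036867, chromosome 9, 63860341 to 63929793, minus strand), was at 1209.6, 1252.3, 1342.0, 1367.5 and 1301.6 against 1537.1, 1351.9, 1187.4 and 1238.5. The Mrc1Cre Xpr1fl/fl samples lay inside the range of the controls (log2 fold change -0.03, 95% interval -0.20 to 0.14, adjusted p = 0.769). The log2 ratio of Smad6 to Smad7 was 1.390, 1.114, 0.962, 1.227 and 1.135 in Mrc1Cre Xpr1fl/fl and 0.943, 0.809, 0.537 and 0.878 in Xpr1fl/fl samples. The genotypes did not overlap, by a narrow margin (difference 0.374, exact permutation p = 0.0159, adjusted p = 0.0317). Without Xpr1fl/fl sample 3 the difference was 0.289 with an exact permutation adjusted p of 0.0536. Among samples of the shared date it was 0.372, with no test.

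The Id genes are read as an output of the BMP branch. Id1 (ENSMUSG00000042745, chromosome 2, 152566218 to 152579544, plus strand) was at 2098.7, 1617.0, 1785.1, 1421.5 and 1980.4 in Mrc1Cre Xpr1fl/fl and 2289.6, 2061.3, 1901.2 and 2155.8 in Xpr1fl/fl samples. Mrc1Cre Xpr1fl/fl samples 2, 3 and 4 were below every control, and samples 1 and 5 lay among them. The log2 fold change was -0.25 (95% interval -0.48 to -0.018), which missed the threshold over all genes (limma adjusted p = 0.0771). Id1 passed in 5 of 20 alternatives, and without Mrc1Cre Xpr1fl/fl sample 4 its log2 fold change was -0.17 (limma adjusted p = 0.15). It passed without Mrc1Cre Xpr1fl/fl sample 1 (-0.31, adjusted p = 0.0317) or sample 5 (-0.29, adjusted p = 0.0473) and with scaling to the 75th percentile (-0.33, adjusted p = 0.0298), and the date fit gave -0.07 (adjusted p = 0.844).

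Id3, known as a lineage factor of Kupffer cells (ENSMUSG00000007872, chromosome 4, 135870808 to 135873066, plus strand), was at 3891.6, 3527.5, 3874.9, 3336.5 and 3534.1 against 4024.5, 3536.8, 3141.8 and 3366.0. Its Mrc1Cre Xpr1fl/fl samples lay within the controls (log2 fold change 0.05, 95% interval -0.11 to 0.21, adjusted p = 0.619). Of the macrophage and Kupffer cell markers, Timd4, Clec4f, Vsig4 and Cd5l were lower in the same samples, and Nr1h3, Spic and Ptprc were higher. The log2 ratio of Id1 to Id3 was -0.891, -1.125, -1.118, -1.230 and -0.835 in Mrc1Cre Xpr1fl/fl and -0.813, -0.779, -0.724 and -0.643 in Xpr1fl/fl samples. Relative to Id3, Id1 was lower in every Mrc1Cre Xpr1fl/fl sample than in any control (difference -0.30, exact permutation p = 0.0238, adjusted p = 0.0317). The margin was narrow, with Mrc1Cre Xpr1fl/fl sample 5 at -0.835 and Xpr1fl/fl sample 1 at -0.813. Among samples of the shared date only, the difference was -0.063, with no test.

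**Figure D2:**
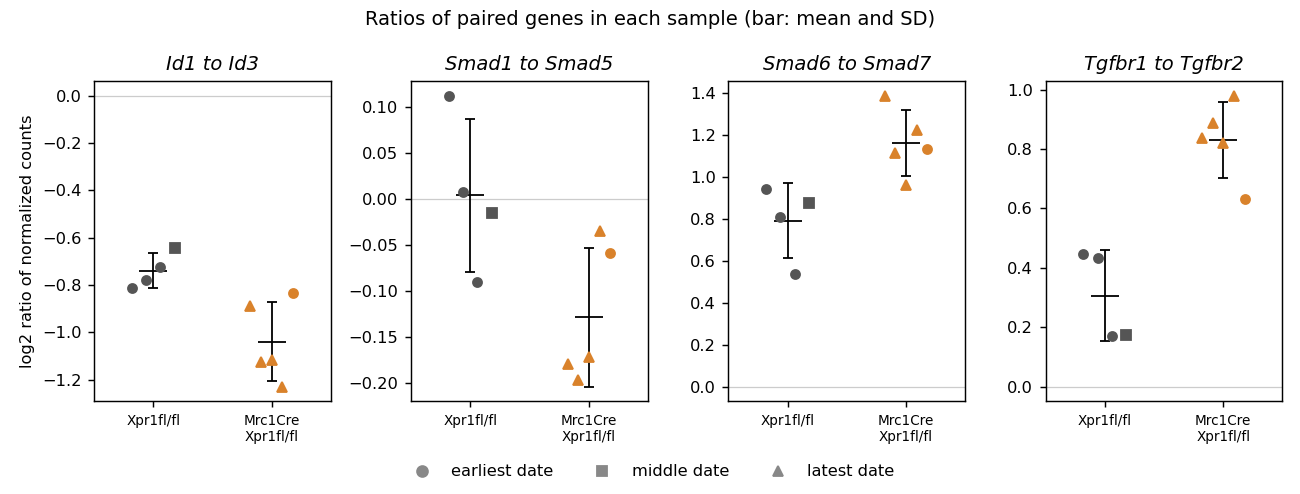
Log2 ratio of normalized counts (vertical axes) for 4 pairs of genes in each Xpr1fl/fl (grey, n = 4) and Mrc1Cre Xpr1fl/fl sample (orange, n = 5), with the mean and SD as bars and the date as the shape of the point. The genotypes are apart for Tgfbr1 to Tgfbr2, by a narrow margin for Smad6 to Smad7 and Id1 to Id3, and overlap for Smad1 to Smad5.

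**Figure D3:**
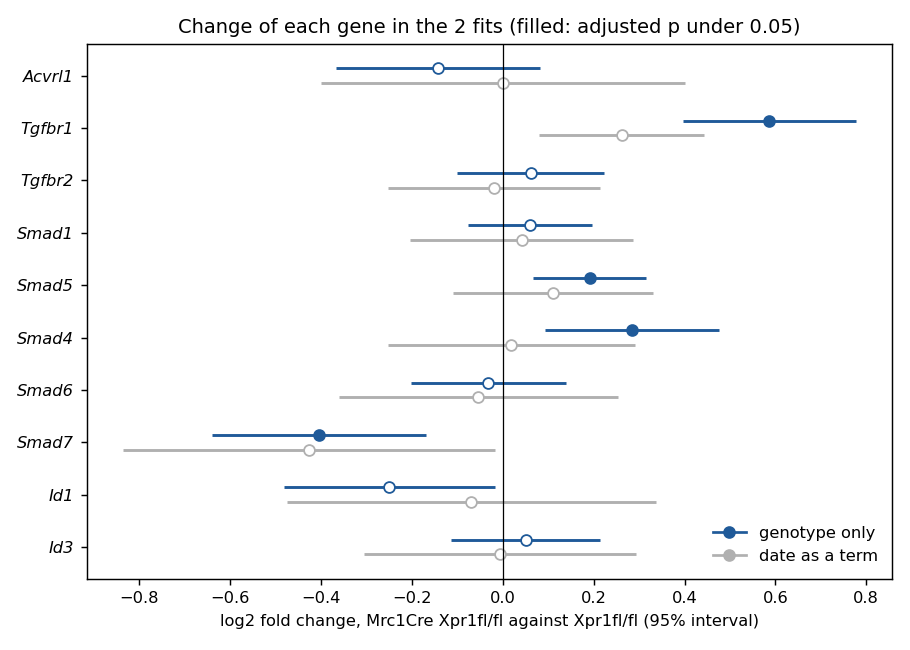
Log2 fold change of each of the 10 genes, Mrc1Cre Xpr1fl/fl against Xpr1fl/fl (horizontal axis), with 95% intervals, in the fit by genotype (blue) and in the date fit (grey), where filled points have an adjusted p under 0.05. Tgfbr1, Smad5, Smad4 and Smad7 are filled in blue, no point is filled in grey, and the grey intervals of Tgfbr1 (0.08 to 0.44) and Smad7 (-0.84 to -0.018) do not reach 0.

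Levels between genes were compared per kilobase of annotated exon, and the length of the transcripts in use was not known. In Xpr1fl/fl samples Id3 stood first with 1964 ± 209 normalized counts per kilobase, followed by Id1 with 1184 ± 92.0 and Tgfbr1 with 656.4 ± 26.7, and the ranges of these neighbours did not overlap. Tgfbr2 (401.3 ± 42.0), Smad6 (374.6 ± 43.7) and Acvrl1 (312.0 ± 49.6) came next, each overlapping its neighbour in this order. Smad7 (161.2 ± 13.5), Smad5 (159.7 ± 6.27), Smad4 (137.8 ± 12.0) and Smad1 (135.0 ± 10.3) stood last and likewise overlapped their neighbours. Per length, Id transcripts were the most abundant of the 10.

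In Mrc1Cre Xpr1fl/fl samples the level of Tgfbr1 (991.6 ± 121, range 781.5 to 1090) overlapped that of Id1 (1003 ± 153, range 800.8 to 1182), both behind Id3 (2028 ± 135). Smad7 was last with 122.3 ± 17.0 normalized counts per kilobase, behind Smad1 with 140.4 ± 4.86, whose range it overlapped. In the controls the mean of Smad7 had been above those of Smad5, Smad4 and Smad1, with ranges that overlapped.

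The genes whose pattern over the 9 samples was most like that of Acvrl1, Id1 and Id3 were sought among 11399 genes by the root mean square distance between centred log2 profiles, in which a small value means a like profile. For Acvrl1, whose own profile had an SD of 0.173, they were Cd68 (distance 0.0624), a lysosomal protein of macrophages, Creg1 (0.0636) and Mindy1 (0.0723). For Id1, with an SD of 0.206, they were Mrpl34 (0.0745), Kctd11 (0.0823) and Fam135a (0.0867). For Id3, with an SD of 0.111, they were Rps16-ps2 (0.0516), Ndufb1 (0.0526) and Ap1s1 (0.0533), where Rps16-ps2 is a pseudogene whose reads may belong to its parent. The samples of a profile share their normalization, and the distances are a description without a test.

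The other genes of the pathway were followed in 8 lists with 132 genes, of which 89 had a row and 88 were tested. Of these, 22 rose, 27 fell and 39 did not pass the test, so that 55.7% were called, against 43.1% of all genes tested. The genotypes did not overlap in 38 of the 88, against 34.1% of all genes tested. In the date fit 4 were higher and 10 lower, against 8.78% of all genes called there. Markers of endothelial and stellate cells, which make or receive many of these factors, were lower in the same samples, and their part was not tested.

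Among the ligands 1 of 15 tested rose, 7 fell and 7 did not pass, with a median log2 fold change of -0.80. Tgfb1, by far the most abundant, did not pass and was at 10515.8 ± 783.8 in Mrc1Cre Xpr1fl/fl and 10377.8 ± 348.9 in Xpr1fl/fl samples (log2 fold change 0.02, adjusted p = 0.842). The ligands that fell had low counts. Gdf2, which encodes BMP9, was at 27.2 ± 7.8 against 79.3 ± 5.4 (log2 fold change -1.56, adjusted p = 0.000324), and Gdf3, a member of the family that acts in early embryos, at 28.8 to 55.5 against 112.6 to 142.4 (-1.68, adjusted p = 0.000123). Gdf10 (-1.27) and Lefty1 (-1.33), an inhibitor of Nodal, fell too. Bmp10, with very low counts of 7.1 ± 1.9 against 21.1 ± 7.8, was lower as well (-1.42, adjusted p = 0.00605, and -1.36 in the date fit). Bmp1 (-0.84) and Bmp5 (-1.44) complete the 7. The date fit called only Gdf3 among the ligands (-1.63, adjusted p = 0.0329), and gave -1.23 for Gdf2 (adjusted p = 0.0915), -0.90 for Gdf10 (adjusted p = 0.231) and -0.45 for Lefty1 (adjusted p = 0.634). The ligand that rose was Amh (1.16), the hormone that removes the Müllerian duct, at 17.7 to 33.1 against 4.4 to 17.0 (1.88 in the date fit, adjusted p = 0.0805). Of 33 ligands listed 17 had no row, Bmp4, Bmp6 and Bmp7 among them.

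Of 12 other receptors and co-receptors 2 rose and 5 fell. Tgfbr3, betaglycan, which presents TGF-β to its receptor, was at 86.2 ± 15.1 against 269.9 ± 63.5 (log2 fold change -1.62, adjusted p = 7.44e-05), and was also called in the date fit (-1.51, adjusted p = 0.00994). Bmpr1a, a type I receptor of BMPs, was at 585.6 ± 115.8 against 896.1 ± 124.4 (-0.63, adjusted p = 0.0057), and was likewise called there (-1.02, adjusted p = 0.0118). Eng, endoglin, the co-receptor of ACVRL1 for BMP9, fell from 716.4 ± 163.5 to 469.6 ± 57.5 (-0.59, adjusted p = 0.00981, and -0.69 with adjusted p = 0.0493 in the date fit). Tgfbr3l (-0.77) and Hjv (-1.55) fell at low counts, and neither passed in the date fit (-0.32 and -0.61). Bmpr2, the type II BMP receptor and the most abundant of the list, rose from 1940.4 ± 135.6 to 2784.5 ± 479.2 (0.50, adjusted p = 0.00738). However, its log2 fold change was 0.00056 in the date fit, and Mrc1Cre Xpr1fl/fl sample 5 stood at 1938.2. Neo1, neogenin, which also serves as a BMP co-receptor, rose 2.1-fold (645.8 ± 138.5 against 303.6 ± 42.0, log2 fold change 1.07, adjusted p = 0.000377), but the date fit gave 0.52 (adjusted p = 0.142).

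Of the other Smads, Smad2, a receptor Smad of the TGF-β branch, rose 1.2-fold (1940.9 ± 73.1 against 1621.4 ± 74.1, log2 fold change 0.26, adjusted p = 0.00224), and Smad3 (0.38, adjusted p = 0.083) and Smad9 (-0.17, adjusted p = 0.677) did not pass. Smad2 had no overlap between the genotypes. The date fit gave it a log2 fold change of 0.20 (adjusted p = 0.206).

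Latent TGF-β is stored and freed by binding proteins and integrins, and of 11 such genes 3 rose and 3 fell. Itgb1, the most abundant, rose from 15777.2 ± 518.6 to 21019.1 ± 1369.6 (log2 fold change 0.41, adjusted p = 0.000238). Itgav, the alpha chain of the integrins that free TGF-β (0.36, adjusted p = 0.0165), and Nrros, which anchors latent TGF-β on myeloid cells (0.31, adjusted p = 0.000219), rose as well. Lrrc32, which encodes the anchor GARP, fell (-1.83, adjusted p = 0.00101), as did Ltbp4, a matrix protein that binds latent TGF-β (-2.35, adjusted p = 0.00177), and Itgb5 (-0.16, adjusted p = 0.0481). Ltbp4 ranged from 41.6 to 176.6 in the controls and from 11.2 to 25.4 in Mrc1Cre Xpr1fl/fl samples, beside the lower stellate and mesenchymal markers. In the date fit only Nrros of this list was called (0.28, adjusted p = 0.0402). Itgav turned sign there (-0.07, adjusted p = 0.649), with Mrc1Cre Xpr1fl/fl sample 5 at 4165.4 below every control, while Itgb1 was at 0.28 (adjusted p = 0.053), Ltbp4 at -2.46 (adjusted p = 0.066), Lrrc32 at -1.08 (adjusted p = 0.122) and Itgb5 at -0.19 (adjusted p = 0.286).

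Among 24 intracellular regulators 10 rose and 4 fell. Those that rose include Zfyve9, or SARA, which brings Smad2 to the receptor (538.1 ± 59.4 against 337.7 ± 47.9, log2 fold change 0.67, adjusted p = 0.000792), and Usp9x, a deubiquitinase that acts on SMAD4 (0.49, adjusted p = 0.00355). Runx1 rose as well (0.38, adjusted p = 0.000423), and of the 10 that rose it alone was called in the date fit too (0.365). Those that fell were Runx3 (-1.24, adjusted p = 0.000539), a transcription factor that works with Smads, Tgif2 (-1.14, adjusted p = 0.000541), a corepressor of Smads, Wwp1 (-0.25) and Stub1 (-0.25), both ubiquitin ligases. Runx3 (-1.37, adjusted p = 0.0441) and Tgif2 (-1.46, adjusted p = 0.0219) also passed in the date fit, as did Wwp1 (-0.39, adjusted p = 0.0261). Zfyve9 (0.58, adjusted p = 0.107), Usp9x (0.17, adjusted p = 0.357) and Stub1 (-0.04, adjusted p = 0.805) did not.

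Of 8 secreted and membrane antagonists tested, Crim1 alone rose (961.1 ± 145.4 against 641.8 ± 59.5, log2 fold change 0.57, adjusted p = 0.00196), and it was the most abundant. Dcn (-1.71), Bgn (-1.49) and Nbl1 (-1.82) fell, of which Dcn and Bgn encode matrix proteoglycans that are known from mesenchymal cells and bind TGF-β. The date fit gave 0.28 for Crim1 (adjusted p = 0.322), -1.12 for Dcn (adjusted p = 0.147), -0.87 for Bgn (adjusted p = 0.232) and -1.85 for Nbl1 (adjusted p = 0.138), so that these calls were lost there. Of the 18 listed 10 had no row, Nog, Chrd and Grem1 among them.

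Other target genes went both ways, with 3 of 12 higher, 4 lower and a median log2 fold change of 0.00. Hey1, a repressor induced by BMP9 and by Notch, fell from 276.1 ± 50.1 to 113.1 ± 15.2 (-1.27, adjusted p = 8.36e-05) and passed in the date fit (-1.30, adjusted p = 0.0163). Gata2 (-1.39), Cdkn1c (-1.24) and Klf10 (-0.45) were lower too. Tgfbi, a matrix protein named for its induction by TGF-β, was the most abundant and rose 1.58-fold (24838.6 ± 1998.8 against 15733.5 ± 1058.4, adjusted p = 4.96e-05), also in the date fit (0.45, adjusted p = 0.0246). Gadd45b (0.86) and Atoh8 (0.88), a target of BMP signalling, rose. In the date fit Gata2 (-1.98, adjusted p = 0.0177) and Gadd45b (1.15, adjusted p = 0.0154) passed, and Cdkn1c (-1.18, adjusted p = 0.0642), Klf10 (-0.37, adjusted p = 0.0736) and Atoh8 (0.75, adjusted p = 0.311) did not.

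The E proteins that Id proteins bind moved in different directions. Tcf3 was at 1931.2 to 2025.8 in Mrc1Cre Xpr1fl/fl and 2520.8 to 2894.1 in Xpr1fl/fl samples (log2 fold change -0.45, adjusted p = 8.66e-05), and at -0.39 in the date fit (adjusted p = 0.0334). Tcf12 was at 1595.5 to 2162.9 and 1274.2 to 1560.1 (0.44, adjusted p = 0.00227), and at 0.17 in the date fit (adjusted p = 0.4). Neither overlapped between the genotypes, and Tcf4 did not pass (-0.11, adjusted p = 0.344).

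**Figure D4:**
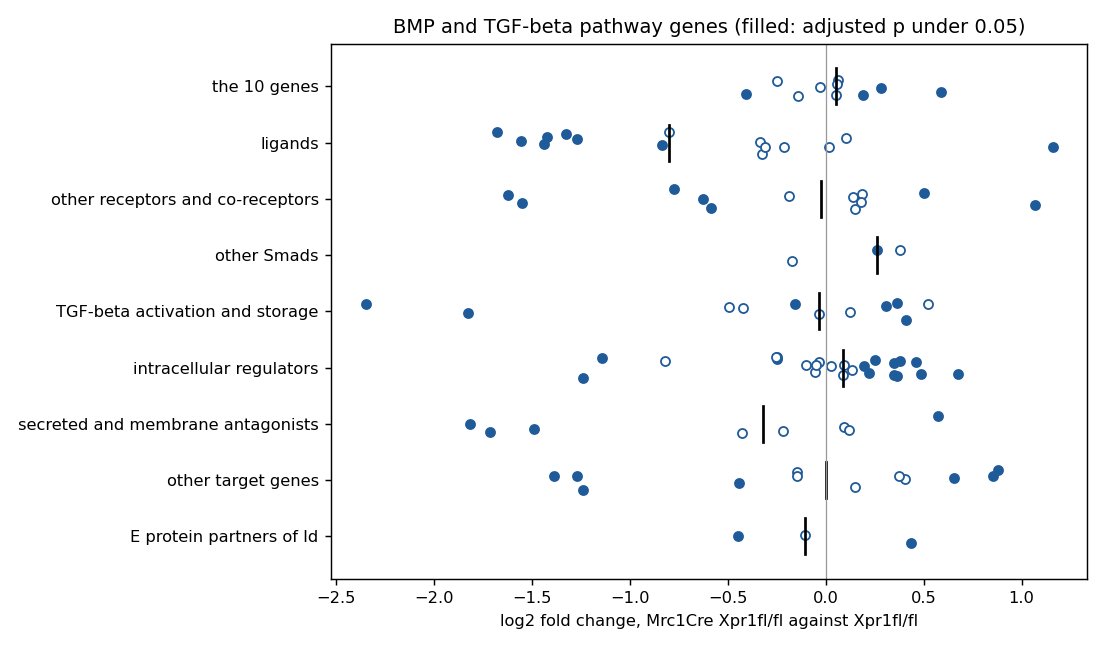
Log2 fold change, Mrc1Cre Xpr1fl/fl against Xpr1fl/fl (horizontal axis), of each gene tested in the 10 genes and the 8 pathway lists, where filled points have an adjusted p under 0.05 and a vertical bar marks the median of a list. Most ligands lie left of 0 (median -0.80), and the points of the regulators lie on both sides (10 higher, 4 lower).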

How the data were processed

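Bulk RNA-seq of sorted fetal liver macrophages was analysed for 5 Mrc1Cre Xpr1fl/fl and 4 Xpr1fl/fl samples, grouped by the genotype in the labels. The libraries were stranded and made from 45 ng of total RNA. Per the study's methods, the authors checked reads with FastQC, quantified them with salmon on GRCm39, annotated transcripts with AnnotationHub, imported them with tximport and normalized them with DESeq2, and versions are not given in the sources used here. The unit of the deposited table is a non-negative signal, since the authors had divided each gene count by a DESeq2 normalization factor. All columns matched a sample by name, and 0 columns belonged to no mapped sample. Whole reads could not be recovered, so no count test was run, and the absolute depth is unknown.

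Genes that reached 10 normalized counts in 4 or more samples were kept. On log2(normalized count + 1), the genotypes were compared by a linear model in limma 3.58.1 (R 4.3.3) with a moderated variance that follows the mean, with Benjamini-Hochberg adjustment over all 13594 genes tested and a threshold of 0.05. Fold changes are on that log2 scale and understate those of low genes. For ratios of genes, the exact permutation test was two-sided and covered 126 arrangements of the samples. The fit was tested on simulated data. Figures were drawn with matplotlib 3.10.9. Symbols, coordinates and exon lengths came from GENCODE release M39 for GRCm39, and promoters from a RefSeq table of GRCm38.p6. No coordinates were converted between builds.

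The genes named were the 10 genes of the list, Xpr1, from each pathway list up to 4 genes with the largest change among those called whose mean reached 20 normalized counts, the most abundant gene of each list, marker genes without a row, and the 3 genes most like Acvrl1, Id1 and Id3. Other named genes complete small counts, stand beside a member, are named in the background or were called in the date fit, and their choice followed a look at their values. The 10 genes and all lists were chosen with earlier results of these data known. Alternatives were other pseudocounts and filters, other scalings, other settings of limma, the replicate number as a block, the date as a term and leaving out each sample.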

Additional observations from a re-analysis of the deposited data

Results flagged for a closer look

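In a gap test within each group of samples (Dixon, 95% level), 2 values among the 28 groups of samples tested stood apart, where about 1.4 (1 in 20) would by chance. Tgfbr1 in Mrc1Cre Xpr1fl/fl sample 5 was at 5174.8 normalized counts, the lowest of its group and nearest to the controls. This is the sample of that genotype with the earliest date in its column name. It also had the highest sums of erythroid, hepatocyte, and granulocyte and progenitor markers in that genotype. The part of either in this value was not tested. Smad1 in Mrc1Cre Xpr1fl/fl sample 1 was at 1209.8, the lowest of its group, and lay within the range of the controls.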

How the results depend on the processing

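The fit was repeated under 20 alternatives. With the date as a term, the genes called fell from 4 to 0 of the 10, from 5865 to 1194 of all genes and from 49 to 14 of the pathway genes. Leaving out each sample gave 3 to 5 of the 10, 4815 to 6081 of all and 43 to 48 of the pathway genes. Leave-one-out differences of the log2 ratios ran from -0.351 to -0.252 for Id1 to Id3, from -0.163 to -0.0959 for Smad1 to Smad5 (passing without Xpr1fl/fl sample 3), from 0.289 to 0.425 for Smad6 to Smad7 (not passing without that sample) and from 0.480 to 0.575 for Tgfbr1 to Tgfbr2. Among samples of the shared date, the differences were -0.0631 for Id1 to Id3, 0.282 for Tgfbr1 to Tgfbr2, 0.372 for Smad6 to Smad7 and -0.068 for Smad1 to Smad5.

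With the replicate number as a block, 5 of the 10 genes and 6226 of all genes were called, and Id1 passed (-0.29). Number 5 occurs only in Mrc1Cre Xpr1fl/fl, so the log2 fold changes of this fit equal those without that sample. Sample 5, the only one of its genotype that shares a date with controls, therefore adds nothing to them. Same-numbered samples did not deviate together (r = -0.033, 0.147, -0.011 and -0.031), so the numbers were not taken to pair the samples. In the replicate block the differences of the log2 ratios were -0.351 (Id1 to Id3), 0.381 (Smad6 to Smad7), 0.575 (Tgfbr1 to Tgfbr2) and -0.149 (Smad1 to Smad5). A paired test over the 16 sign flips of 4 pairs gave each an adjusted p of 0.125. That is the smallest p that 4 pairs allow, so no ratio could pass in it.

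Log2 fold changes near 0 turned sign in genes that were not called. Scaling to the 75th percentile, which moved the median of all genes to -0.07, gave -0.018 for Tgfbr2, -0.019 for Smad1 and -0.029 for Id3. Quantile normalization gave -0.049 for Tgfbr2 and -0.066 for Id3. The date as a term gave 0.00091 for Acvrl1, -0.020 for Tgfbr2 and -0.0063 for Id3. Leaving out each sample gave -0.00098 to 0.114 for Tgfbr2 and -0.083 to 0.041 for Smad6, where the sign turned without Xpr1fl/fl sample 1, and -0.0022 to 0.117 for Id3, where it turned without Xpr1fl/fl sample 3. The cause of these changes was not tested. Over all alternatives, 175 values of single genes and 102 counts and ratios kept their direction and side of the threshold or, for counts, stayed within 1.5 times.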
